A study of Mus musculus with 24 samples.

Results

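Solute carriers are membrane proteins that move nutrients, metabolites, ions and metals across the plasma membrane and the membranes of organelles. The genes described here were chosen by symbol: every listed gene named Slc followed by a family number, a letter and a member number. Left out were the mitochondrial Slc25 family and Slc7a2, Slc7a11, Slc3a2, Slc7a5, Slc2a1, Slc16a3, Slc11a1 and Slc40a1. The rule found 168 of 13290 listed genes, in 41 families. It takes a symbol, not a measured function. Slc9a3r1 (the scaffold protein NHERF1), Slc4a1ap, Slc7a6os and the pseudogene Slc2a4rg-ps fit the pattern without being carriers, and Slc8b1 is a sodium-calcium exchanger of the inner mitochondrial membrane despite the rule's name.

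The study sequenced RNA of BV2 cells, a mouse microglial line grown in culture, and of extracellular vesicles (EVs), the small membrane-bound particles that these cells released. Cultures were untreated controls or received 100 ng/mL of LPS (lipopolysaccharide, a bacterial cell wall component), 50 ng/mL of IL-10 or 50 ng/mL of TGF-β for 72 h. There were 3 libraries in each of 8 groups, all of 1 cell line. The labels do not state whether the 3 libraries of a group are from separate cultures; the spread that p-values rest on is that between libraries and could be technical.

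Cell libraries held 26136825 to 42125153 counts and EV libraries 3019338 to 17978753. Of 13 microglial markers 12 were listed (P2ry12 was not) and they summed to between 5690 and 8837 CPM in cells, while the 3 listed neuronal markers summed to at most 0.28 CPM. Levels below are CPM (counts-per-million values, scaled by TMM over the 12 libraries of cells or of EVs), given for the 3 libraries of a group or as mean ± SD with n = 3. Adjusted p-values come from edgeR's quasi-likelihood test with Benjamini-Hochberg adjustment over all genes tested, and a member "rose" or "fell" where this value was under 0.05. In bulk libraries, a change of RNA per cell and a change in the share of cells that express a gene cannot be told apart.

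Carriers fall into a few functional groups. Amino acid carriers feed protein synthesis, redox balance and osmolyte pools, and several of them are induced when amino acids run short. Lysosomal carriers return the products of digestion to the cytosol, and metal carriers set the supply of iron, copper and zinc, which macrophages and microglia withhold from or deliver to ingested microbes. By class the members comprised 33 for amino acids, peptides and amines, 31 for inorganic ions and pH, 25 for metals and haem, 21 for nucleotide sugars and 19 for organic ions, choline, bile acids and others. There were 13 for nucleosides and vitamins, 13 for sugars and sugar phosphates, 9 for carboxylates, fatty acids and acetyl-CoA, and the 4 that are not carriers.

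Promoter sequence was available from RefSeq (GRCm38.p6) for 130 members, as 176 windows of 250 bases before to 50 bases after a start. The 5 windows below belong to carriers that moved under a treatment. Each carrier was picked by hand together with 1 kind of letters, and its window with the most matches is shown. The windows of other carriers that moved, Slc10a6, Slc2a6 and Slc38a2, held none of the letters searched. Capitals mark 1 kind of searched letters in each window, on either strand. For the neighbouring GABA carriers Slc6a13 and Slc6a12 these are NF-κB-like letters (GGG, any 2 bases, TT, any base, CC), for the nucleoside carrier Slc28a2 the STAT-like letters TTCNNNGAA, for the lysosomal amino acid carrier Slc36a1 the E-box CACGTG, and for the neutral amino acid carrier Slc1a4 the amino acid response letters TGATGNAA.
Slc6a13 (chr6:121303389-121303688, plus strand): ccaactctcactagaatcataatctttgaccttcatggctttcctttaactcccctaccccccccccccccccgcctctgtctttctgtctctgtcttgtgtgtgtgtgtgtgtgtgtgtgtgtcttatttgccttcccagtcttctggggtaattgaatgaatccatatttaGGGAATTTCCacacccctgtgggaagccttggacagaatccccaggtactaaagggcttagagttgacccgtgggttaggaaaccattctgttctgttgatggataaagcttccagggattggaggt
Slc6a12 (chr6:121342324-121342623, plus strand): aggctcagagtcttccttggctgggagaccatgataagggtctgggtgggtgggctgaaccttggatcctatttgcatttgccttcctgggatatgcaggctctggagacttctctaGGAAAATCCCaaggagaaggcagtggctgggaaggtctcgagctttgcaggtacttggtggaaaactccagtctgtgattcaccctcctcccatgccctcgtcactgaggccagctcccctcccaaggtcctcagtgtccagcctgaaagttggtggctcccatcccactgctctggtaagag
Slc28a2 (chr2:122426185-122426484, plus strand): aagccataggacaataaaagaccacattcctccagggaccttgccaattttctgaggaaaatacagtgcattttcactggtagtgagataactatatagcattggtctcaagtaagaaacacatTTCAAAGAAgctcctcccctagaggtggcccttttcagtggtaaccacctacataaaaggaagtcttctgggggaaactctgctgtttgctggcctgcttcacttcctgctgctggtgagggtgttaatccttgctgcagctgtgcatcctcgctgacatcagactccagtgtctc
Slc36a1 (chr11:55204090-55204389, plus strand): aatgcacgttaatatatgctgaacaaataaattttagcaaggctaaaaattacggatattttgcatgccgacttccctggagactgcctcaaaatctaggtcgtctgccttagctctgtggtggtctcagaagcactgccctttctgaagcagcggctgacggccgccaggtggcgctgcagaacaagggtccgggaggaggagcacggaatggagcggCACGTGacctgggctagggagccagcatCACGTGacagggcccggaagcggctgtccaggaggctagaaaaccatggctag
Slc1a4 (chr11:20332664-20332963, minus strand): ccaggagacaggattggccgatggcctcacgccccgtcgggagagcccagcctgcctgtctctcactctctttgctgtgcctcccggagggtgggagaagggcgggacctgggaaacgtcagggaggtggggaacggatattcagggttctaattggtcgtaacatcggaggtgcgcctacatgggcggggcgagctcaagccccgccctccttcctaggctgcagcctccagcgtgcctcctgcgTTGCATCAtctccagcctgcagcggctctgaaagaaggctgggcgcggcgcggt

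The window of Slc36a1 held 2 E-boxes and the other 4 windows held 1 match each of the letters capitalised. Slc6a13 has 3 windows in the table, of which only the one shown holds the NF-κB-like letters. Slc6a12 has 5, of which 3 hold them, and the first by position is shown; it also holds the AP-1 letters given below, which are not capitalised. Of all 32851 promoter windows, 4.79% held the NF-κB-like letters, 8.3% the STAT-like letters, 7.15% the E-box and 3.97% the amino acid response letters. Among the 176 windows of members these shares were 6.82%, 5.68%, 13.1% and 3.41%. The E-box stood in windows of 22 of 130 members, among them 3 of the 11 endolysosomal carriers with a window (Slc12a9, Slc36a1 and Slc38a7). The interferon-response letters (GAAA, any 2 bases, GAAA) were in 1.14% of member windows and 3.44% of all, and the SMAD-like letters CAGACA in 15.3% and 21.0%. The letters of AP-1, TGANTCA, were in 6.25% and 7.81%. These matches describe letters in a window and are not evidence of binding.

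In control cells the members together took 1.028% ± 0.028 (SD, n = 3) of all counts. The share was 1.048% ± 0.005 after LPS, 0.993% ± 0.015 after TGF-β and 0.888% ± 0.016 after IL-10, and the 3 IL-10 libraries (0.872% to 0.904%) lay below every other cell library. These are shares of counts not scaled by TMM. The TMM factors were 0.9032 to 0.9258 in IL-10 libraries and 0.9983 to 1.1 in the other cell libraries. Scaling therefore raises the IL-10 values relative to the others, and scaled shares were not compared. The smallest p that an exact permutation test of 3 against 3 libraries can give is 0.1. Per kilobase of exon, the haem carrier Slc48a1 was the most abundant member in control cells at 252 CPM per kb. The scaffold gene Slc9a3r1 followed at 113, the glutamine and alanine carrier Slc38a2 at 102, the fatty acid carrier Slc27a1 at 74.3, the Golgi carrier Slc35c2 at 66.3 and the taurine carrier Slc6a6 at 65.6 CPM per kb. The median member was at 4.44 CPM per kb, and the 10 members with the highest CPM held 40.7% of the members' summed CPM. High in their own classes were the sugar carrier Slc50a1 (35.0 CPM per kb), the choline carrier Slc44a2 (23.3), the potassium-chloride carrier Slc12a4 (19.1) and the vitamin C carrier Slc23a2 (18.8). Of these 4, LPS lowered Slc44a2 1.41-fold and Slc23a2 1.47-fold, TGF-β raised Slc23a2 1.23-fold and lowered Slc12a4 1.28-fold, and Slc50a1 passed the test under no treatment. Between 154 and 160 members had at least 1 count in each cell library.

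The comparison of LPS with control cells asks which carriers an inflammatory stimulus changes. Of 154 members tested, 40 rose and 47 fell, beside 28.6% of all genes tested that rose and 27.5% that fell. Members rose in 26.0% and fell in 30.5% of cases, shares close to those of all genes. The median absolute log2 fold change was 0.47 for members and 0.39 for all genes, and the median signed change was -0.02 and 0.01. Rises of more than 2-fold were made by 19 members and falls of that size by 17. The changes reached across all carrier classes. They were 8 up and 9 down among 33 amino acid carriers, 7 and 8 among 25 metal and haem carriers, and 1 and 5 among 13 sugar carriers. These class sizes include members that were not tested.

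**Figure D1:**
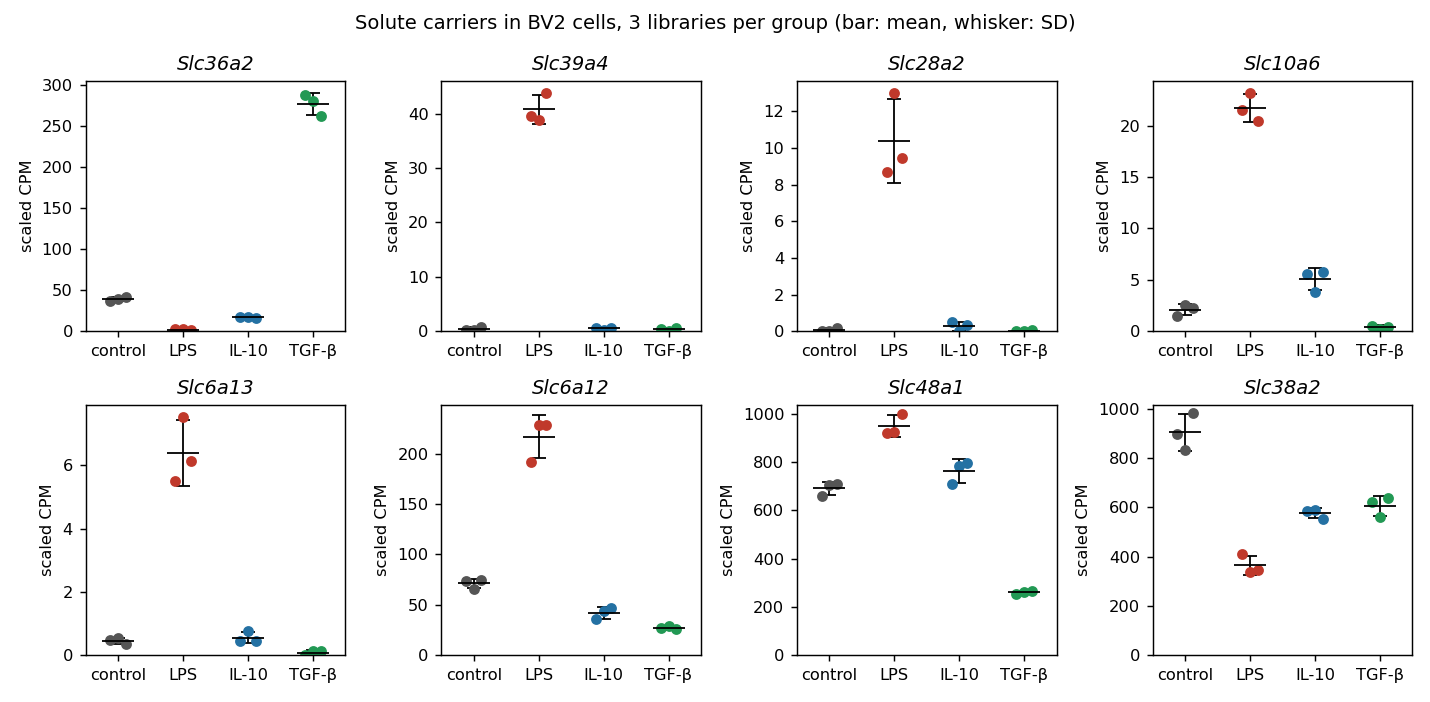
Levels (CPM scaled by TMM, linear axes from 0) of 8 carriers in the 12 cell libraries, 3 per group; points are libraries, the horizontal bar is the mean and the whisker the SD. Slc36a2 lies between 262 and 288 CPM after TGF-β and at or below 2.33 after LPS, while Slc39a4, Slc28a2, Slc10a6, Slc6a13 and Slc6a12 are highest after LPS.

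Several carriers that were barely counted in control cells were clearly present after LPS. The zinc importer Slc39a4 was at 0.219, 0.306 and 0.769 CPM in controls and at 39.6, 38.9 and 43.8 after LPS (93.3-fold, log2 fold change 6.54, SE 0.22, edgeR adjusted p = 6.57e-14). After IL-10 its 3 libraries lay between 0.254 and 0.666 CPM and after TGF-β between 0.0766 and 0.527, which overlaps the controls in both cases. The sodium-coupled purine nucleoside carrier Slc28a2 had counts in 1 of 3 control libraries (0, 0 and 0.201 CPM) and reached 8.7, 13.0 and 9.44 CPM after LPS (147-fold, log2 7.20, SE 0.48, adjusted p = 3.49e-09). Its control mean of 0.0669 CPM was under the floor of 3 counts per library (0.101 CPM on average), so the size of this fold is uncertain. A related gene, Gm14085, lies beside Slc28a2 and was not analysed here, so reads shared between the copies cannot be assigned.

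Slc10a6, a carrier of sulphated steroids, rose 10.2-fold under LPS, from 1.5, 2.57 and 2.24 to 21.5, 23.2 and 20.5 CPM (log2 3.36, SE 0.18, adjusted p = 7.62e-12). It was also higher after IL-10, at 5.59, 3.81 and 5.77 CPM (2.39-fold, adjusted p = 0.00199), and lower after TGF-β, at 0.551, 0.192 and 0.388 CPM (5.44-fold, adjusted p = 0.00118). No library of any treated group overlapped the controls for this gene. The betaine and GABA carrier Slc6a12 and the GABA carrier Slc6a13, whose promoters are printed above, are separated by 5.34 kb on the same strand of chromosome 6. Slc6a13 went from 0.443 ± 0.0968 to 6.39 ± 1.04 CPM with LPS (14.2-fold, adjusted p = 1.33e-09), and Slc6a12 from 71.1 ± 4.78 to 217 ± 21.6 CPM (3.05-fold, adjusted p = 2.18e-12). Under TGF-β both fell, Slc6a12 to 26.3, 28.8 and 25.5 CPM (2.65-fold, adjusted p = 1.55e-07) and Slc6a13 to 0, 0.115 and 0.111 CPM (log2 -2.52, SE 0.81, adjusted p = 0.0316). The pair therefore moved in the same direction within each of these treatments.

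Among other rises under LPS, the hexose carrier Slc2a6 went from 60.6 ± 4.08 to 264 ± 36.3 CPM (4.35-fold, adjusted p = 1.63e-12). Slc43a3, a purine nucleobase carrier in a family named for amino acids, went from 18.7 ± 0.876 to 65.3 ± 2.6 CPM (3.49-fold, adjusted p = 3.88e-12). The neutral amino acid carrier Slc1a5 rose 1.39-fold and the monocarboxylate carrier Slc16a1, which moves lactate, 1.62-fold. None of the groups of 3 libraries overlapped for these 4 genes.

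The steepest fall under LPS among carriers with at least 50 counts was that of Slc36a2, which carries glycine, alanine and proline with protons. It was at 37.2, 39.8 and 41.5 CPM in controls and at 2.33, 2.23 and 1.16 after LPS (20.4-fold lower, log2 -4.35, SE 0.18, adjusted p = 1.49e-12). IL-10 lowered it to 17.4, 16.8 and 16.6 CPM (2.33-fold, adjusted p = 3.85e-08) and TGF-β raised it to 288, 280 and 262 CPM (7.01-fold, log2 2.81, adjusted p = 3.41e-11). The 4 groups did not overlap at any point, and the order from low to high was LPS, IL-10, control and TGF-β. In the direct test the TGF-β and LPS cells differed 143-fold (log2 of LPS over TGF-β -7.16, SE 0.16, adjusted p = 5.42e-17).

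Other falls under LPS included the anion carrier Slc26a11 (24.4 ± 4.19 to 4.59 ± 0.733 CPM, 5.31-fold) and the brain neurotransmitter family member Slc6a17 (2.55-fold). Of the sodium-proton exchangers, Slc9a9 fell 6.61-fold from 1.82 ± 0.39 CPM and Slc9a5 2.67-fold from 4.11 ± 1.01. Slc38a2, the amino acid carrier with the highest level per length in control cells, fell from 897, 833 and 984 to 410, 337 and 345 CPM (2.48-fold, adjusted p = 3.59e-10), and the taurine carrier Slc6a6 fell 1.66-fold. The glucose carrier Slc2a3 was low in controls, at 0.877, 0.581 and 0.802 CPM, and lower still after LPS (0.0432, 0.1 and 0 CPM), IL-10 (0.119, 0.0635 and 0.0634) and TGF-β (0.153, 0.192 and 0.222). It passed the test in all 3 comparisons with adjusted p = 0.000214, 0.00211 and 0.014, and is named here after its values were seen, since it had fewer than 50 counts per library.

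**Figure D2:**
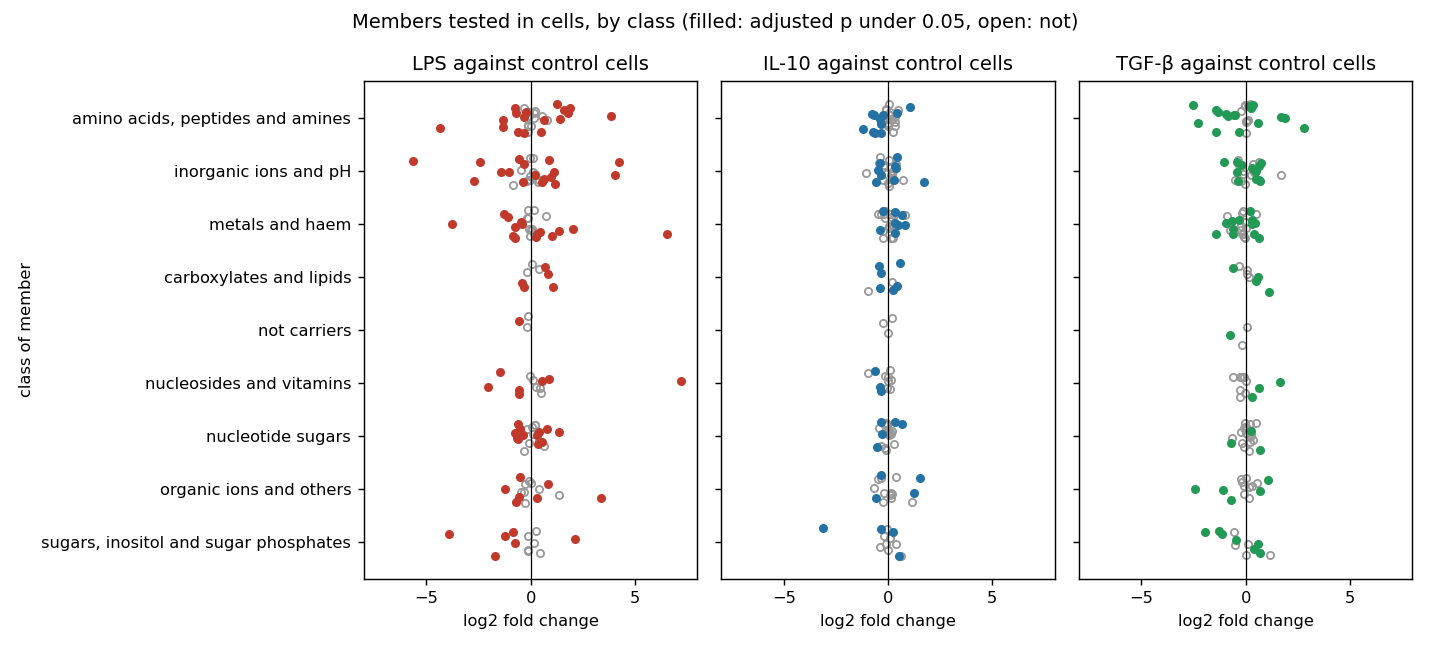
Log2 fold change against control cells of each member tested, by class, in 3 panels for LPS, IL-10 and TGF-β; filled points passed the adjusted threshold and open points did not, and vertical scatter within a class carries no value. Slc28a2 and Slc39a4 lie at 7.20 and 6.54 for LPS, and Slc36a2 lies at -4.35 for LPS, -1.22 for IL-10 and 2.81 for TGF-β.

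IL-10 changed fewer members. Of 149 tested, 22 rose and 28 fell, beside 12.3% of all genes that rose and 10.9% that fell; the members' shares were 14.8% and 18.8%. The median absolute log2 change was 0.25 against 0.2 over all genes, and 4 rises and 2 falls exceeded 2-fold. The bicarbonate carrier Slc4a8 went from 5.04, 6.27 and 6.59 to 14.9, 24.4 and 20.8 CPM (3.35-fold, adjusted p = 6.84e-07), while LPS left it at 5.99 ± 1.65 and TGF-β at 4.58 ± 1.13. The ergothioneine carrier Slc22a4 went from 11.9 ± 2.32 to 34.1 ± 3.96 CPM (2.87-fold, adjusted p = 2.13e-07). Slc22a4 also rose 1.75-fold under LPS and fell 2.12-fold under TGF-β, to 5.6 ± 0.587 CPM.

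Of 28 amino acid carriers tested with IL-10, 9 fell and 2 rose, beside 10.9% of all genes that fell and 12.3% that rose. The class median log2 change was -0.02. Falling were Slc36a2, Slc6a12, the glycine carrier Slc6a9 (33.5 ± 3.62 to 20.5 ± 2.49 CPM, 1.63-fold), Slc1a4 (1.59-fold) and Slc38a2 (905 ± 75.8 to 577 ± 20.2 CPM, 1.57-fold, adjusted p = 2.4e-07). The others were Slc38a1, Slc7a1, Slc7a8 and Slc6a6. The amino acid carrier Slc7a7 (2.04-fold) and the Golgi-type family member Slc35f6 (114 ± 6.82 to 183 ± 4.41 CPM, 1.61-fold) rose, as did the monocarboxylate family member Slc16a6 (1.49-fold). Slc7a7 lost its call without control library 3 (adjusted p = 0.0681), and Slc16a6 without control library 2, control library 3 or IL-10 library 2 (0.0534 to 0.0982). Slc1a4 lost its call when all 12 cell libraries were fitted together (0.0721). The vesicular amine carrier Slc18a1 (1.5-fold lower, adjusted p = 0.0383) lost its call in that fit (0.129) and without control library 1 or 2 or IL-10 library 1 or 3 (0.0838 to 0.168).

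TGF-β raised 34 and lowered 31 of 149 members tested, beside 14.5% of all genes that rose and 15.4% that fell. The members' shares were 22.8% and 20.8%, and the median absolute log2 change was 0.33 against 0.26 over all genes. Rises of more than 2-fold numbered 6 and falls of that size 12. On chromosome 11, Slc36a1 lies 19.3 kb from Slc36a2 on the other strand, and both rose; Slc36a1, a lysosomal carrier of small amino acids, went from 3.0, 2.69 and 2.37 to 8.05, 9.69 and 8.74 CPM (3.28-fold, adjusted p = 2.03e-05). Slc36a3, 6.76 kb on the other side of Slc36a2, did not pass. The proton-coupled folate carrier Slc46a1 went from 17.6 ± 0.661 to 55.8 ± 2.38 CPM (3.17-fold, adjusted p = 3.77e-08). Slc17a5, which exports sialic acid from lysosomes, went from 88.0 ± 3.85 to 184 ± 5.2 CPM (2.09-fold, adjusted p = 1.06e-07), and Slc7a7 rose 3.76-fold to 8.75 ± 0.833 CPM. The dicarboxylate carrier Slc13a3 (2.16-fold, adjusted p = 0.0249) lost its call without control library 1 or 3 or TGF-β library 3 (0.0968 to 0.121). Slc22a15 (1.64-fold, adjusted p = 0.0365) lost it without control library 1 or 3 or TGF-β library 1 (0.0782 to 0.146).

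Among falls under TGF-β, the glycine carrier Slc6a9 went from 31.5, 31.2 and 37.6 to 6.77, 8.43 and 5.41 CPM (4.9-fold, adjusted p = 2.31e-07). Slc1a4 fell 2.64-fold, the cationic amino acid carrier Slc7a1 1.91-fold, Slc1a5 1.78-fold and Slc38a2 1.49-fold. In all, 10 of 28 amino acid carriers tested fell and 7 rose, beside 15.4% of all genes that fell and 14.5% that rose. The class median was 0.01. Slc7a14 fell 2.49-fold and the sugar phosphate carrier family member Slc37a1 2.47-fold. Slc2a6, which rose with LPS, fell to 27.5 ± 0.38 CPM (2.2-fold, adjusted p = 8.3e-07). In the direct test it was 9.58-fold higher in LPS than in TGF-β cells (adjusted p = 1.67e-15).

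Carriers of iron, haem and copper moved in different directions under the 3 treatments. Slc48a1, which releases haem from endolysosomes, was at 660, 706 and 709 CPM in controls and fell to 255, 261 and 264 with TGF-β (2.66-fold, adjusted p = 3.23e-09). LPS raised it 1.37-fold, to 950 ± 45.2 CPM. The divalent metal carrier Slc11a2, which takes up iron, went from 172 ± 15.3 to 436 ± 14.5 CPM with LPS (2.54-fold), to 301 ± 24.4 with IL-10 (1.75-fold) and down to 114 ± 10.3 with TGF-β (1.51-fold). These 2 carriers were thus highest after LPS and lowest after TGF-β. Copper carriers rose throughout: the uptake carrier Slc31a1 and its neighbour Slc31a2, 62.3 kb apart on chromosome 4, both rose under all 3 treatments. Slc31a2 was at 58.0 ± 4.09 CPM in controls, 239 ± 11.7 after LPS (4.12-fold), 81.3 ± 5.53 after IL-10 (1.4-fold) and 72.6 ± 3.93 after TGF-β (1.25-fold). Slc31a1 was at 152 ± 6.32, 308 ± 15.5 (2.03-fold), 237 ± 11.5 (1.56-fold) and 197 ± 15.1 CPM (1.3-fold) in the same order. The copper pump Atp7a, no member, rose 1.96-fold with IL-10 and fell 2.01-fold with LPS.

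Of 18 listed zinc carriers of the Slc30 and Slc39 families, all tested, LPS raised 3 and lowered 6, IL-10 raised 3 and lowered 2, and TGF-β raised 4 and lowered 3. Of all genes, 28.6% rose and 27.5% fell with LPS, 12.3% and 10.9% with IL-10 and 14.5% and 15.4% with TGF-β, so the counts for IL-10 and TGF-β lay near these shares. Slc39a4 was the only one of them to change more than 2-fold upward with LPS. The zinc importer Slc39a2 fell 2.12-fold with LPS and rose 1.54-fold with TGF-β, Slc39a10 fell with TGF-β (log2 -0.96, SE 0.21, adjusted p = 0.00786), and the zinc exporter Slc30a1 fell 1.79-fold with LPS (14.1, 12.4 and 12.7 to 10.2, 5.34 and 6.07 CPM). Slc39a12, chosen after its values were seen, fell with LPS from 1.06 ± 0.102 CPM to 0.0764 ± 0.085 (edgeR adjusted p = 7.94e-05), where the floor of 3 counts per library is 0.084 CPM. The metallothionein Mt1, a zinc-binding protein and no member, rose 2.96-fold with IL-10 and 2.23-fold with TGF-β.

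Endosomes and lysosomes digest what microglia take up. Of 15 listed carriers of these compartments, all tested, 8 fell and 3 rose with LPS, with a median log2 change of -0.3 against 0.01 for all genes, of which 27.5% fell and 28.6% rose. The list was made by hand with earlier results of these data known, and its counts depend on which carriers it includes. Slc2a6 and Slc31a2, which rose with LPS, are not in it. Among those that fell were Slc9a9, Slc46a3 (31.2 ± 3.06 to 7.45 ± 1.4 CPM, 4.19-fold), the sugar phosphate carrier family member Slc37a2 (306, 254 and 297 to 82.1, 89.9 and 90.1 CPM, 3.27-fold), the nucleoside carrier Slc29a3 (97.3 ± 16.3 to 34.7 ± 3.4 CPM, 2.8-fold) and Slc17a5 (88.0 ± 3.85 to 36.7 ± 5.45 CPM, 2.38-fold). Slc15a4 and Slc36a4 fell by less, with log2 changes of -0.32 and -0.3. Rising were Slc11a2, Slc48a1 and the peptide and histidine carrier Slc15a3 (105 ± 12.7 to 162 ± 19.8 CPM). With TGF-β, 5 of the 15 rose (Slc36a1, Slc17a5, Slc37a2 and Slc46a3 among them) and 2 fell (Slc48a1 and Slc11a2), with a median of 0.06, beside 14.5% and 15.4% of all genes. IL-10 raised 3 and lowered 1, with a median of 0.14, near the 12.3% and 10.9% of all genes. In the direct test of LPS against TGF-β cells, 9 of the 15 were lower and 3 higher in LPS cells, beside 27.8% and 29.3% of all genes, with a median of -0.38; Slc46a3 was 6.64-fold and Slc37a2 5.19-fold lower there.

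**Figure D3:**
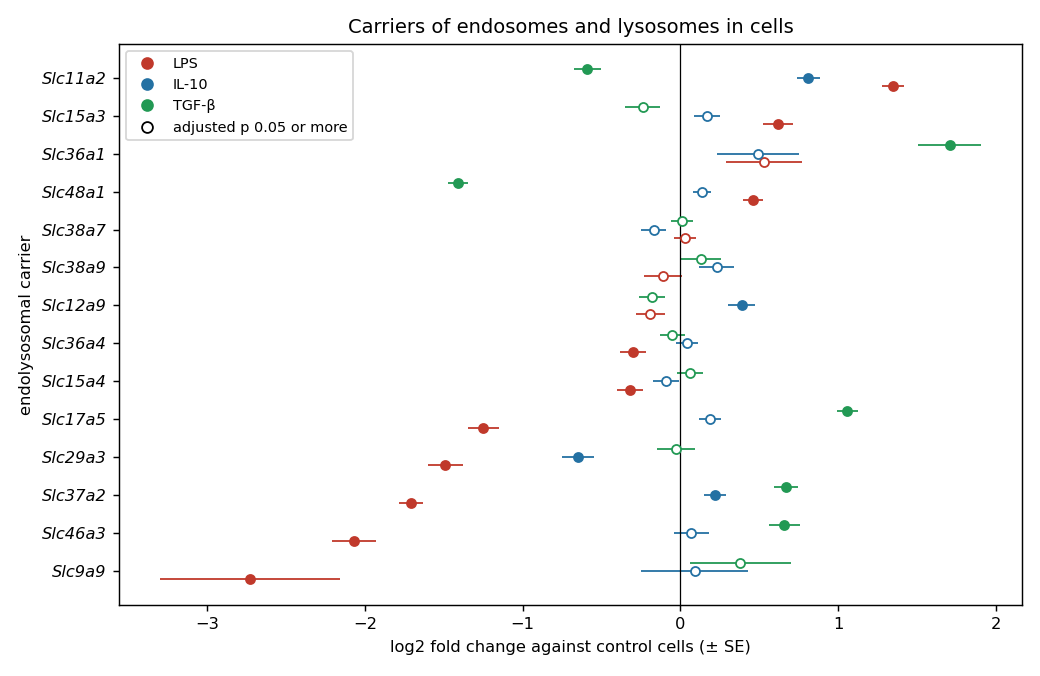
Log2 fold change against control cells (horizontal axis) of carriers of endosomes and lysosomes for LPS, IL-10 and TGF-β. Whiskers are the SE, calculated from the log2 change and the F statistic of its test. Filled points passed the adjusted threshold. Slc9a9, Slc46a3, Slc37a2, Slc29a3 and Slc17a5 lie left of -1 for LPS, while Slc36a1 and Slc17a5 lie right of 1 for TGF-β.

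The treatments share their control libraries, so they were also compared directly in a fit of all 12 cell libraries. LPS and TGF-β cells differed in the most members: of 155 tested, 50 were higher and 50 lower in LPS cells, beside 29.3% and 27.8% of all genes. Against IL-10 cells, 45 were higher and 40 lower in LPS cells (27.0% and 26.3% of all genes). TGF-β cells exceeded IL-10 cells in 37 members and fell below them in 39 (18.3% and 20.0% of all genes). Slc36a2 was 16.4-fold and Slc46a1 4.01-fold higher in TGF-β than in IL-10 cells, and Slc13a3 4.22-fold (adjusted p = 9.98e-05). Slc10a6 was 12.9-fold, Slc22a4 6.07-fold, Slc4a8 4.34-fold and Slc7a14 3.1-fold lower there. Slc10a6 was 55.6-fold and Slc6a13 82.1-fold higher in LPS than in TGF-β cells. For Slc6a13 the TGF-β cell values given above lay near the floor of 3 counts per library (0.0967 CPM on average). The size of its fold is therefore uncertain.

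Members that neighbour each other in the genome were compared by a fixed distance. In GENCODE M21, 13 pairs lie less than 100 kb apart. Both genes of a pair passed the test in the same direction in 3 pairs with LPS, 2 with IL-10 and 3 with TGF-β, and no pair passed in opposite directions. Besides the copper and GABA pairs these were Slc35b2 with Slc29a1 (both lower with LPS), Slc38a1 with Slc38a2 (both lower with IL-10) and Slc36a2 with Slc36a1 (both higher with TGF-β). Of all genes tested, 28.6% rose and 27.5% fell with LPS, 12.3% and 10.9% with IL-10, and 14.5% and 15.4% with TGF-β. Some pairs, such as Slc43a1 with Slc43a3, held a gene that was not tested and so could not pass. Whether neighbours move together more often than other genes was not tested. Neighbours can share reads at their ends, and 49 members share exon bases with another annotated gene. Where the strand of reads is not recorded, the pigment-cell exchanger Slc24a5 (39.5% of its exon bases shared with Myef2) and Slc6a9 (27.8% with Ccdc24) are uncertain, as are Slc16a6 (21.5% with Amz2) and Slc15a3 (28.1% with Tmem132a).

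The carriers that the rule leaves out by name were tested in the same fits, beside the shares of all genes given above. With LPS, 5 of the 7 listed rose and 2 fell, including the cystine carrier Slc7a11 (34.4 to 243 CPM on average, 7.08-fold) and the iron exporter Slc40a1 (170 to 73.7 CPM, 2.3-fold lower). With IL-10, 2 rose and 3 fell. With TGF-β, 1 rose, the arginine carrier Slc7a2 (5.12-fold), and 5 fell, among them Slc7a11 (4.39-fold), the leucine carrier Slc7a5 (2.19-fold) and the lysosomal metal carrier Slc11a1 (1.82-fold). Of 13 listed partner proteins and ion pumps, LPS raised 2 and lowered 6, IL-10 raised 8 and lowered 1, and TGF-β raised 4 and lowered 2. Of carriers under other names, 17 were tested with LPS, of which 5 rose and 5 fell; 3 rose and 2 fell of 16 with IL-10, and 3 rose and 6 fell of 16 with TGF-β.

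EV libraries held fewer of the members, except after LPS. A count was present for 102 to 115 members in the control EV libraries, 92 to 114 after IL-10 and 77 to 126 after TGF-β, but for 163 to 168 after LPS. All 3 libraries counted a member in 68 cases in control EVs and in 162 cases in LPS EVs, and 26 members were at 0 in all 3 control EV libraries against 0 members in LPS EVs. The LPS EV libraries were not deeper: their totals were 3019338 to 6278724 counts, and those of control EVs 5645725 to 17978753. The same holds beyond carriers: of all listed genes 0.49% to 4.42% were at 0 in LPS EV libraries and 28.98% to 33.45% in control EV libraries. As a share of library counts, members took 0.789% ± 0.178 in control EVs and 0.727% ± 0.127 in LPS EVs, which overlap.

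Values within an EV group varied far more than in cells. Slc38a2 was at 920, 170 and 195 CPM in the 3 control EV libraries, where the cell controls spanned 833 to 984. Slc48a1 was counted in every EV library, at 428, 762 and 475 CPM in controls, 810, 373 and 412 after LPS, 1177, 988 and 741 after IL-10 and 558, 648 and 679 after TGF-β. Each treated group overlapped the control EVs, and no difference passed the test.

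Of 156 members tested in LPS EVs against control EVs, 24 rose and 0 fell, beside 13.9% of all genes that rose and 0.237% that fell. Each of the 24 had at most 6 counts summed over the 3 control EV libraries. They passed the filter on low counts only through the LPS EVs, so a call for them could only be higher. The median log2 change was -0.01 for members and 0.33 for all genes, and these medians were the same with genes at 0 in a group set to their bound. Of the 24, 20 had 0 counts in all 3 control EV libraries, so each fold is given as a lower bound against a floor of 3 counts per library (0.377 CPM on average). The intestinal chloride exchanger Slc26a3 was at 21.4, 28.5 and 16.2 CPM, at least 58.5-fold higher. The nucleoside carrier Slc28a3 was at 26.5, 43.7 and 19.1 CPM (at least 79.1-fold), the anion exchanger Slc4a3 at 13.4, 26.8 and 16.9 (at least 50.5-fold), Slc38a4 at 8.84, 7.73 and 11.4 (at least 24.7-fold) and Slc7a7 at 4.31, 9.67 and 9.67 (at least 20.9-fold). All 5 had adjusted p = 0.025. None of these groups overlapped the controls, but the calls rested on each LPS EV library: 0 members were called higher without LPS EV library 1, 2 or 3, or when all 12 EV libraries were fitted together. Without any 1 control EV library 28 to 36 were called, and DESeq2 called 40.

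In the LPS cells themselves, 5 of the 24 members rose (Slc7a7, Slc38a4, Slc28a2, Slc12a5 and Slc26a9), 3 fell, 6 did not pass and 10 were too low to test, beside 28.6% of all genes that rose there and 27.5% that fell. In 11 of them the LPS cells held no more than the floor of 3 counts per library on average. In 6 the LPS cells had 0 counts in all 3 libraries, among them Slc26a3, the dopamine carrier Slc6a3, the organic cation carrier Slc22a3, Slc44a3 and the exchanger Slc9b2. Each of these 6 was counted in all 3 LPS EV libraries, Slc6a3 at 4.75, 25.1 and 15.7 CPM. Slc39a4 and Slc2a6, which LPS raised in cells, were not called in LPS EVs; Slc39a4 had a log2 change of 0.04 (SE 2.5, adjusted p = 1.0) and Slc2a6 one of -0.27 (SE 0.57, adjusted p = 0.926). Astrocyte and neuron markers and Pecam1 were higher alongside this result: the 4 listed of 6 astrocyte markers summed to 64.29 to 319.61 CPM in LPS EVs and 0 to 42.22 in control EVs. The 3 listed of 6 neuron markers summed to 20.13 to 145.73 and 0 to 9.13 CPM. Pecam1, the only 1 listed of 6 endothelial and fibroblast markers, was at 10.75 to 31.13 and 0 CPM. In cells Pecam1 was at 0.43 to 0.87 CPM after LPS and at 0 in controls. The 2 listed oligodendrocyte markers overlapped between the groups, at 6.21 to 31.8 CPM in LPS EVs and 0 to 88.0 in control EVs. The 12 listed microglia and macrophage markers were lower, at 3076.17 to 4555.22 CPM in LPS EVs and 4741.46 to 6970.95 in control EVs. Slc1a3 and Slc1a2 are members as well as astrocyte markers. The part of these markers in the result was not tested.

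**Figure D4:**
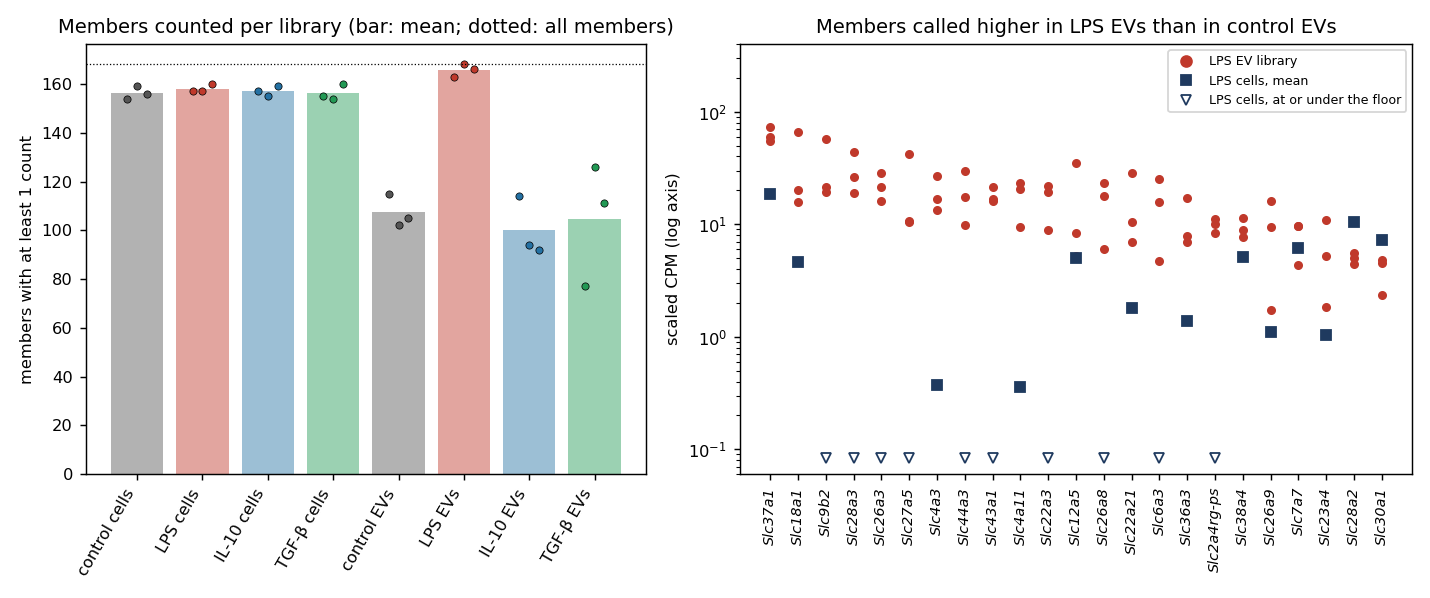
Left: members with at least 1 count in each library (points) and the group mean (bars from 0), with the dotted line at all 168 members. Right: members called higher in LPS EVs than in control EVs, with the 3 LPS EV libraries and the mean of LPS cells on a log axis; open triangles mark LPS cells at or under the floor, as for Slc26a3 and Slc6a3.

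Set against the cells they came from, LPS EVs held 37 members at a higher and 39 at a lower level of 167 tested, beside 25.3% and 15.2% of all genes. The median log2 difference was -0.5 for members and 0.13 for all genes. Among the members tested, 6 were at 0 in all 3 LPS cell libraries and could only be called higher. The falls numbered 62 without LPS EV library 1. Slc9b2 (19.4, 57.3 and 21.3 CPM) was at least 389-fold, Slc26a3 at least 262-fold, Slc44a3 at least 226-fold and Slc22a3 at least 199-fold higher in EVs than the floor of the LPS cells (0.084 CPM). CPM of EVs and of cells were scaled apart, so these bounds are approximate. The glial glutamate carrier Slc1a3 was at 31.1, 104 and 37.2 CPM in LPS EVs and had 1 count in the LPS cell libraries together. Lower in EVs were the acetyl-CoA carrier Slc33a1 (1.09 ± 0.965 against 13.1 ± 1.14 CPM, adjusted p = 0.0151) and Slc35e3 (1.81 ± 0.81 against 11.4 ± 1.26, adjusted p = 0.00604). Slc6a9, Slc35g1 and Slc36a4 were lower with adjusted p = 0.0386, 0.0422 and 0.0488. These 3 lost the call in edgeR under library size scaling (adjusted p = 0.0624, 0.112 and 0.125). They also lost it without LPS cell library 1, 2 or 3 (0.0825 to 0.114). Slc6a9 lost it without LPS EV library 2 (0.121), and Slc35g1 and Slc36a4 without LPS EV library 3 (0.13 and 0.139). Slc33a1 lost it without LPS cell library 1 (0.0516).

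In control EVs against control cells, 0 members were higher and 11 lower of 143 tested, beside 1.23% and 9.43% of all genes; at an unadjusted p under 0.05 there were 24 members in all, and DESeq2 called 4 higher and 26 lower. The median log2 difference was -0.65 for members and -0.24 for all genes. Among the members tested, 9 were at 0 in all 3 control EV libraries. They passed the filter on low counts only through the cells and could only be called lower. Slc18a1, at 7.48 ± 0.973 CPM in cells, was at 0 in all 3 control EV libraries and so at least 19.9-fold lower. The same bounds were 7.2-fold for the chloride carrier Slc12a5, 6.19-fold for Slc7a7, 5.79-fold for Slc38a4 and 5.58-fold for Slc10a6, each with adjusted p = 0.0216. Here too the bounds are approximate, since EVs and cells were scaled apart. These 11 calls were lost without control cell library 1, 2 or 3, and between 20 and 43 members were called lower without 1 of the control EV libraries.

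No member was called in IL-10 EVs (106 tested) or in TGF-β EVs (111 tested) by edgeR, and 0.0% of all genes rose and 0.0% fell with IL-10, and 0.0% rose and 0.0% fell with TGF-β. At an unadjusted p under 0.05 there were 3 members with IL-10 and 1 with TGF-β, of 177 and 360 genes, and DESeq2 called 3 members lower with IL-10 and 0 with TGF-β. Slc39a13 (DESeq2 adjusted p = 4.87e-08) and Slc36a2 (0.00035) were among the members that DESeq2 called lower. The 3 lowest p-values with IL-10 belonged to the zinc carrier Slc39a13 (28.2, 66.3 and 51.7 CPM in control EVs and 0 in all IL-10 EVs), to Slc36a2 (41.9, 35.3 and 38.9 against 0.859, 0 and 0) and to Slc15a3 (126, 106 and 117 against 43.8, 55.3 and 28). The groups did not overlap for these genes, yet each had an edgeR adjusted p of 1.0. With TGF-β they belonged to the potassium-chloride carrier Slc12a7 (76.8, 105 and 153 against 15.1, 0.448 and 0.915 CPM), the zinc carrier Slc30a6 and Slc38a1 (269, 1203 and 738 against 1885, 1377 and 1972 CPM), each with an adjusted p of 0.999. Slc36a2, raised 7.01-fold by TGF-β in cells, was at 98.2, 48.3 and 65 CPM in TGF-β EVs, above all 3 control EV libraries (log2 0.85, SE 0.72, adjusted p = 0.999).

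Whether the LPS change differs between EVs and cells was tested as an interaction over 12 libraries. Of 168 members, 31 had a larger log2 change in EVs and 5 a smaller one, beside 14.1% and 2.04% of all genes. The larger changes numbered 20 without control cell library 2 and 49 without control EV library 1, and the smaller ones 3 without any 1 cell library, 10 without control EV library 2 and 14 without control EV library 3. Slc36a2 fell in cells and was at 46.6, 26.6 and 76.8 CPM in LPS EVs beside 41.9, 35.3 and 38.9 in control EVs (difference of log2 changes 4.61, SE 0.72, adjusted p = 0.00183). The copper carrier Slc31a1 rose in cells and was at 45.1, 69.4 and 48.7 CPM in LPS EVs beside 106, 153 and 247 in control EVs (difference -2.79, SE 0.40, adjusted p = 0.00157). Slc2a6, raised 4.35-fold in cells, was at 123, 37 and 60.5 against 95.6, 74.6 and 106 CPM in EVs (difference -2.58, SE 0.55, adjusted p = 0.00865). For these 3 carriers the change in EVs differed from that in cells.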

How the data were processed

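The 6 deposited tables hold raw counts per gene, 1 table for each treatment and compartment, with 3 treated and 3 control libraries in each. The control columns are identical across the 3 tables of a compartment, so 24 libraries were joined, with 0 columns left unmapped. Per the labels' protocols, SMART-Seq v4 and Nextera XT libraries with 18 PCR cycles were sequenced as paired reads of 150 bases. The submitters' processing notes name DESeq2. The aligner, the genome build and the strand setting were not given in the sources used here. Reads carry no molecular identifiers, so count floors of 3 per library cover counting error only. Every listed gene has at least 240 counts summed over the 24 libraries; rarer genes were not analysed here.

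Each comparison was fitted on the whole table by edgeR 4.0.16: genes kept by filterByExpr, TMM scaling factors, a quasi-likelihood test with robust dispersion, p-values adjusted after Benjamini-Hochberg and a threshold of 0.05. The SE given is the absolute log2 fold change divided by the square root of the F statistic of the edgeR test. Direct contrasts of treatments used the 12 cell libraries. Exon lengths and positions came from GENCODE M21 for all 168 members, promoter windows from RefSeq (GRCm38.p6), both possibly differing from the authors' annotation. The procedure was tested on simulated data. The edgeR alternatives were RLE scaling, no filter on low counts, library size scaling for EVs against cells, all 12 libraries of a compartment in 1 fit and leaving out each library; DESeq2 1.42.0 was a second tool. Software was R 4.3.3, Python 3.11.15, matplotlib 3.10.9, pandas 2.3.3 and numpy 2.4.6.

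The members and gene lists were chosen with earlier results of these data known. Named in cells were the 8 largest rises and 8 largest falls per treatment among members past the threshold with at least 50 counts on average in the higher group and no overlap. In EVs, in direct contrasts and in the interaction up to 5 per direction were named, or the 3 lowest p-values where none passed. In each class the 2 members highest per length in control cells were added. Other members are named as part of a list or a genome neighbourhood, or as an example chosen after its values were seen. A few listed genes are counted in totals but not reported here by name or drawn by name.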

Additional observations from a re-analysis of the deposited data

Results flagged for a closer look

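The LPS change differed between EVs and cells, by the test of that difference over 12 libraries, for 31 members with a larger and 5 with a smaller log2 change in EVs. Among those with a larger change, Slc26a8 had an edgeR adjusted p = 0.00143, Slc18a1 0.00152, Slc38a4 0.0018, Slc36a2 0.00183 and Slc22a21 0.00198. Except for Slc36a2, these carriers were at 0 in all 3 control EV libraries. Slc26a8 was at 6.04, 23.4 and 17.9 CPM in LPS EVs and at 0.633 ± 0.205 CPM in control cells and 0.00719 ± 0.0125 in LPS cells. Slc18a1 was at 15.7, 66.2 and 20.0 CPM in LPS EVs and fell in LPS cells. Slc22a21 was at 10.4, 28.5 and 6.92 CPM in LPS EVs.

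Among those with a smaller change, Slc31a1 had an adjusted p = 0.00157, Slc2a6 0.00865, Slc12a7 0.0115, Slc31a2 0.0279 and Slc35c1 0.0375. Slc31a2 was at 112, 55.3 and 35.5 CPM in control EVs and 96.6, 45.9 and 58.7 in LPS EVs, which overlap. Slc35c1 was at 79.1, 84.2 and 30.3 CPM in control EVs and 12.5, 8.94 and 29.7 in LPS EVs. Slc31a2 and Slc35c1 each lost the call when single libraries were left out, with adjusted p up to 0.106 for Slc31a2 and 0.0956 for Slc35c1. The lower share of listed genes at 0 in LPS EVs, and the higher levels of astrocyte and neuron markers and of Pecam1 (not of oligodendrocyte markers) there, moved with these differences, and their part was not tested.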

How the results depend on the processing

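Every count of members in the 6 comparisons among cells stayed within 1.5 times its reported value under all alternatives run, and no log2 change of a named member turned its sign in any comparison. In EVs, DESeq2 called 40 members higher and 5 lower in LPS EVs, 3 lower in IL-10 EVs, 4 higher and 26 lower in control EVs against control cells, and 10 with a smaller LPS change in EVs than in cells. The fit of all 12 EV libraries called 0 members higher in LPS EVs. Leaving out 1 library at a time gave between 0 and 36 higher and between 0 and 2 lower in LPS EVs. It gave between 0 and 9 higher and between 0 and 43 lower in control EVs against control cells, and between 26 and 62 lower in LPS EVs against LPS cells. For the difference in LPS change it gave 20 to 49 larger (20 without control cell library 2, 49 without control EV library 1) and 3 to 14 smaller (3 without any 1 cell library, 14 without control EV library 3). The leave-one-out fits of the difference and of the direct contrasts were chosen after seeing the data. The cause of these shifts was not tested. No paired analysis was possible because the table columns carry no replicate number that matches the labels. In control, IL-10 and TGF-β EVs 26 to 33 members were at 0 in all 3 libraries, and in LPS EVs, which were not deeper than control EVs, 0 were. A floor of 3 counts stood for 0.167 to 0.994 CPM in EV libraries and 0.071 to 0.115 CPM in cell libraries, and differences under it were not detectable.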
